A study of Homo sapiens with 8 samples.

Results

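L-histidinol responses were compared in NCI-H1975 cells with and without alpelisib, and the genes described here are those whose response differed in the same direction in both drug settings tested. The response of a gene was its log2 intensity with L-histidinol minus that without. It was taken in alpelisib minus vehicle, and in the combination of osimertinib and alpelisib minus osimertinib alone, which gave 2 differences per gene. These 2 differences rest on separate sets of 4 arrays and share no array. Of 19775 measured genes, 10882 had the same sign in both differences, 5863 positive and 5019 negative. A positive sign means a higher response with alpelisib, whether through a larger rise or a smaller decrease, and a negative sign means a lower one. Among 11627 genes with a mean log2 intensity of at least 5, a bound used to set dim genes aside, 6797 had the same sign, 4134 positive (35.6%) and 2663 negative (22.9%).

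NCI-H1975 is a human cell line from a lung adenocarcinoma with mutant EGFR, the receptor for epidermal growth factor. Cells received 1 µM alpelisib, its DMSO vehicle, 10 nM osimertinib with 1 µM alpelisib, or 10 nM osimertinib, in each case with 2 mM L-histidinol and without it. All cultures grew in RPMI1640 with serum and were collected after 24 hours. Each of the 8 conditions had 1 array of 1 cell line, and nothing in the labels describes repeated cultures, so p-values measure only the spread between these arrays. Array medians lay between 21.8 and 22.4 on the linear intensity scale and arrays correlated at 0.974 to 0.996 across genes. Epithelial and lung markers were present, with mean log2 levels of 13.06 for KRT7, 12.47 for KRT18 and 8.53 for the lung transcription factor NKX2-1, while the blood marker PTPRC (2.82), the fibroblast marker LUM (2.17) and the endothelial marker CDH5 (2.71) were dim. Those lists also held brighter members: 3 of 6 fibroblast markers had a mean log2 of at least 5 (COL1A1 9.14, COL1A2 6.75 and DCN 5.005), as had 1 of 5 blood markers (HBB 5.79) and 1 of 4 endothelial markers (PECAM1 5.18). In limma 0 members of these 3 lists were called in either fit described below, and 1, LUM, had an unadjusted p below 0.05 in the main test. The ratio of 3′ to 5′ beta-actin signal, a sign of RNA quality, was 1.10 to 1.15 with L-histidinol and 1.04 to 1.07 without it; the ratio with L-histidinol minus that without was 0.0588 in alpelisib against 0.0465 in vehicle and 0.0553 in the combination against 0.0876 in osimertinib, so its 2 differences had opposite signs.

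L-histidinol is an analog of histidine that blocks histidyl-tRNA synthetase. Uncharged tRNA activates the kinase GCN2, which slows translation in general and favours translation of ATF4, the transcription factor of the integrated stress response (ISR). ATF4 raises genes for amino acid synthesis, uptake and tRNA charging. Alpelisib inhibits the alpha isoform of the lipid kinase PI3K, which lies between growth factor receptors such as EGFR, the target of osimertinib, and the kinases AKT and mTORC1. mTORC1 promotes ATF4 translation and sterol synthesis, and AKT holds FOXO transcription factors inactive.

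Large differences mostly had the same sign in both sets of arrays. Among genes with a mean log2 of at least 5, 208 had both differences at or above 0.25 (1.79% of the 11627 genes) and 191 had both at or below -0.25 (1.64%), 399 in all, against 120 genes that passed 0.25 in opposite directions. These counts and their balance depended on the scaling: they were 134 positive and 117 negative with a pseudocount of 16, 191 and 204 with arrays centred on their median, and 162 and 223 after quantile normalization. At 0.5 the counts were 16 positive and 19 negative against 1 gene of opposite signs, and at 0.75 they were 2 and 7 against 0. Sign alone separates weakly: the smaller absolute difference had a median of 0.0725 in genes with the same sign and 0.0554 in the others, and it was under 0.1 in 4317 and 3575 of them. Across the 11627 genes the differences correlated at r = 0.24 (Spearman 0.22), a description across genes, which are not independent replicates. The median difference of these genes was 0.032 in the alpelisib and vehicle set and 0.018 in the other.

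No gene passed the main test (0% of 19775 genes). This was limma's moderated test of the mean of both differences at an adjusted p below 0.05, with a spread that was borrowed from an additive fit and therefore holds any true change of the response as well as noise. The smallest adjusted p was 0.0908, shared by CYP24A1, GDF15, IFI44L, INHBE and NIBAN1. At an unadjusted p below 0.05 there were 998 genes (5.05%), 512 positive (2.59%) and 486 negative (2.46%). With a spread pooled over genes from the disagreement of the 2 differences instead, limma called 278 genes (1.41%), 155 higher (0.784%) and 123 lower (0.622%). Of these, 275 had the same sign in both differences, against 55.03% of all genes. A call needs a large mean of the same 2 differences, so that count is no separate support. The pooled spread had 102.7 prior degrees of freedom beside 1 residual one, so a gene's own disagreement counted little. RRM2, for example, was called with differences of 0.03 and 0.91. In simulated data with true differences of 0.5 log2 units, 28.6% of the calls of this less strict fit were false and it found 2.5% of the changed genes. With true differences of 1 unit, 11.2% of its calls were false and it found 79%. The simulated spread was drawn from the prior of the additive fit, the one that the main test uses. These rates therefore need not hold for the 278 calls. Of 68 genes named by rule that it called, 66 had an absolute mean difference under 1, and the median was 0.53. Calls named below as from the less strict fit are of this kind, and no other call is meant.

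**Figure D1:**
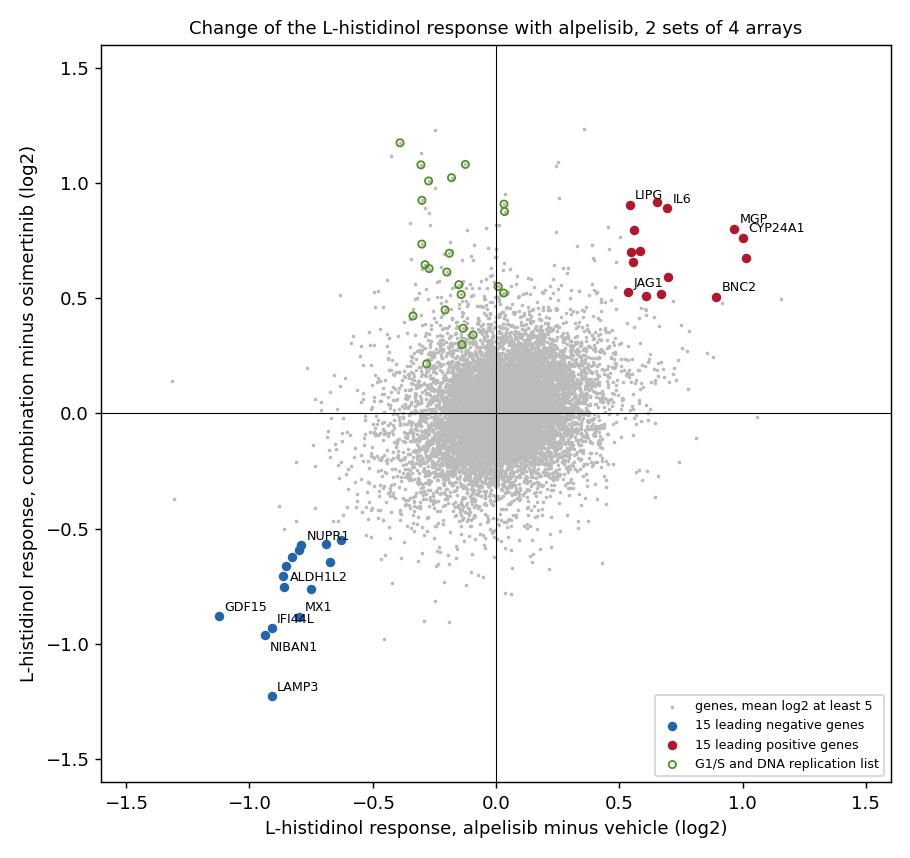
Difference of the L-histidinol response in alpelisib minus vehicle (x axis, log2) against the difference in the combination minus osimertinib (y axis, log2), 1 point per gene with a mean log2 of at least 5. The 15 leading negative genes (blue) and the 15 leading positive genes (red), ranked by the smaller of their 2 differences, lie in the lower left and upper right corners, while G1/S and DNA replication genes (green rings) lie high on the y axis only.

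Of the 15 genes with the most negative differences, 4 were on the list of interferon-induced genes, 2 on that of ISR genes, 1 on that of amino acid synthesis and 8 on none. Ranked by the smaller of the 2 absolute differences, the first 15 were NIBAN1, LAMP3, IFI44L, GDF15, MX1, ALDH1L2, OAS2, KLHDC7B, PABPC1L, AZGP1, TMEM45B, MX2, NUPR1, ZFP69B and UPP1. L-histidinol gave a higher level than its absence in each of the 4 drug settings for these genes, apart from a response of 0.00 for OAS2 in the combination, and the responses were smaller where alpelisib was present. Without L-histidinol, 14 of the 15 were higher with alpelisib in both settings, as were 164 of the 191 genes at or below -0.25. That level is part of the differences, and its share over all genes was not counted. Since the ranking used these differences, their sizes are a description. All 15 were called in the less strict fit, which tests the mean of the same differences, so these calls are no separate support. Their adjusted p in limma's main test lay between 0.0908 and 0.86.

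NIBAN1, a stress-induced regulator of translation, had log2 levels of 8.85 with L-histidinol and 7.61 without in alpelisib, 9.02 and 6.84 in vehicle, 8.77 and 8.45 in the combination, and 9.03 and 7.74 in osimertinib. The arrays with L-histidinol were nearly level in all 4 drug settings, and the arrays without it were higher where alpelisib was present. The mean difference was -0.95 ± 0.11 (standard error of the fit over 8 arrays, adjusted p = 0.0908 by limma), from -0.94 and -0.96, and a second probe set of the gene gave -1.03 and -0.94. GDF15, a secreted stress cytokine, had 8.89 and 7.69 with and without L-histidinol in alpelisib, 9.40 and 7.07 in vehicle, 8.63 and 7.95 in the combination, and 8.43 and 6.87 in osimertinib. Its mean difference was -1.001 ± 0.12 (adjusted p = 0.0908 by limma). The GDF15 probe set is marked for possible cross-hybridization, and the unmarked one, dim at a mean log2 of 2.99, gave -0.00.

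LAMP3, a lysosomal membrane glycoprotein, had 6.70 and 5.36 with and without L-histidinol in alpelisib, 7.17 and 4.92 in vehicle, 7.76 and 6.97 in the combination, and 7.92 and 5.91 in osimertinib. Its responses were 1.34 against 2.25 and 0.79 against 2.02, a mean difference of -1.07 ± 0.15. UPP1, the uridine phosphorylase of pyrimidine salvage, was the brightest of the leading negative genes. Its levels were 11.87 and 10.99 with and without L-histidinol in alpelisib, 12.43 and 10.91 in vehicle, 11.04 and 10.50 in the combination, and 11.54 and 10.46 in osimertinib, so that here the arrays with L-histidinol, not those without, were further apart between alpelisib and vehicle. The mean difference for UPP1 was -0.59 ± 0.08 (adjusted p = 0.11 by limma). For the poly(A)-binding protein PABPC1L (-0.75) the 2 unmarked probe sets, dim at mean log2 levels of 4.27 and 3.27, gave -0.16 and -0.01, each with differences of opposite sign.

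**Figure D2:**
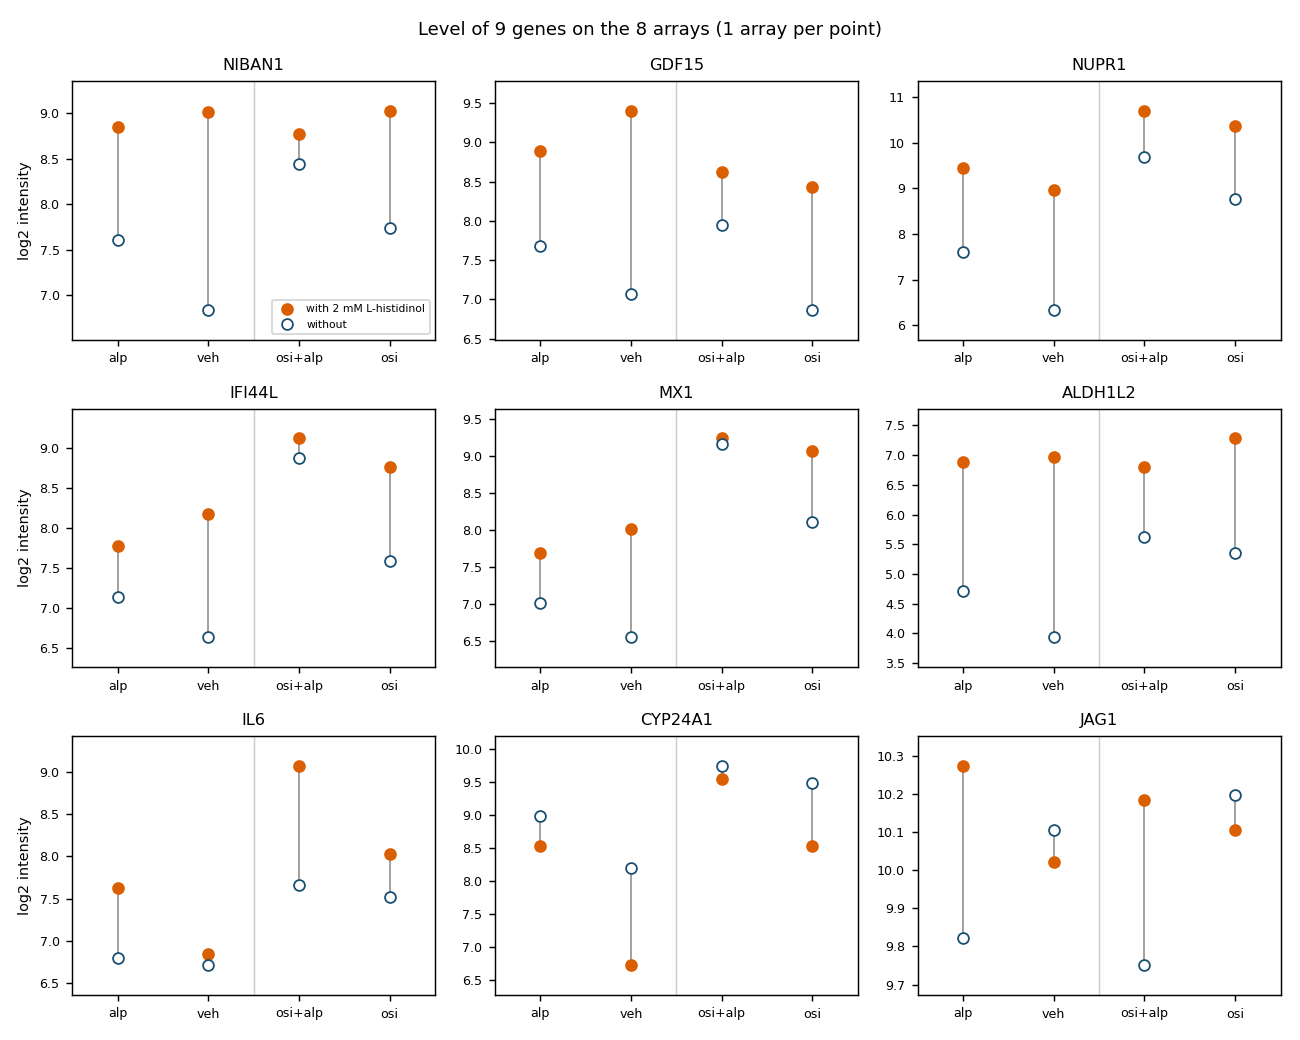
Log2 intensity of 9 genes on the 8 arrays, 1 array per point, with L-histidinol (filled) and without (open), in alpelisib (alp), vehicle (veh), the combination (osi+alp) and osimertinib (osi). The vertical line in each column is the L-histidinol response: for NIBAN1 it is 1.24 in alpelisib against 2.18 in vehicle, and 0.33 in the combination against 1.29 in osimertinib.

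Across the ISR, 20 of 24 measured stress genes had both differences negative, against 25.4% of all genes, and 2 had both positive (29.6% of all genes). The list's median difference was -0.31 in alpelisib minus vehicle and -0.30 in the combination minus osimertinib, beside 0.01 in both sets over all genes. Its median response was 0.82 in alpelisib against 1.05 in vehicle, and 0.51 in the combination against 0.83 in osimertinib. In the less strict fit 10 members were called lower (0.622% of all genes) and 0 higher (0.784%). At an unadjusted p below 0.05 in the main test 14 were lower (2.46% of all genes) and 1 higher (2.59%). The median over members with unmarked probe sets was smaller, -0.19 as the mean of both sets against -0.30 for all probe sets.

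ATF4 itself showed a small difference. Its log2 levels were 11.65 and 10.80 with and without L-histidinol in alpelisib, 11.76 and 10.73 in vehicle, 11.80 and 11.26 in the combination, and 11.72 and 10.88 in osimertinib. The arrays with L-histidinol lay close together, and the combination array without it stood highest of its kind. The mean difference for ATF4 was -0.24 ± 0.08 (adjusted p = 0.95 by limma, and 0.0204 in the less strict fit). Several targets of ATF4 had larger differences: the pseudokinase TRIB3 -0.44 and -0.49, the stress factor NUPR1 -0.79 and -0.57, and the phosphatase subunit PPP1R15A, which restores translation, -0.42 and -0.43. The partner factor DDIT3 had -0.10 and -0.43 and the glutathione-degrading enzyme CHAC1 -0.50 and -0.15, neither called in either fit.

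Not all of the list followed. DDIT4, an mTORC1 inhibitor, had responses of 1.74 in alpelisib against 1.66 in vehicle and 1.31 in the combination against 1.52 in osimertinib, with differences of opposite sign. The leucine sensor SESN2, another mTORC1 brake, differed by -0.73 in the first set and 0.06 in the second. Its other probe set, at a mean log2 of 7.04, gave -0.70 and -0.07, both negative. ATF5, a factor related to ATF4, was the member with the most positive differences, 0.35 and 0.31, and was lower with L-histidinol in all 4 drug settings. ATF3 had differences of 0.07 and 0.003 and STC2 of -0.09 and -0.10, though both were higher with L-histidinol in all 4 drug settings.

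Enzymes of amino acid synthesis and one-carbon metabolism had both differences negative in 10 of 15 measured cases (25.4% of all genes) and both positive in 2 (29.6%). They had medians of -0.14 and -0.20. The less strict fit called 4 of them lower (0.622% of all genes). ASNS, asparagine synthetase, had 11.44 and 9.47 with and without L-histidinol in alpelisib, 11.84 and 9.25 in vehicle, 10.99 and 9.45 in the combination, and 11.48 and 9.49 in osimertinib. Both arrays with L-histidinol and alpelisib lay below their counterparts without alpelisib, and the mean difference was -0.53 ± 0.09 (adjusted p = 0.28 by limma). Its other probe set, at a mean log2 of 1.99, gave -0.19. The mitochondrial folate enzyme ALDH1L2 had 6.89 and 4.71 with and without L-histidinol in alpelisib, 6.97 and 3.93 in vehicle, 6.80 and 5.63 in the combination, and 7.28 and 5.36 in osimertinib, a mean difference of -0.81 ± 0.15. PCK2, the mitochondrial PEP carboxykinase, had -0.60 and -0.41. By contrast the serine synthesis enzyme PSAT1 had 0.10 and 0.08 and PHGDH -0.12 and -0.20, though L-histidinol gave both of them levels at least 1.38 higher in every drug setting.

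The ASNS promoter is shown because it holds the composite element that ATF4 binds, part of a C/EBP site joined to part of a CRE. The motif searched was TGATGNAA on both strands of 300 bases, from 250 before to 50 after the start listed first for a gene in RefSeq GRCh38.p14. It was found in 3.67% of 27305 promoters, in 4 of the 11 amino acid synthesis genes with an entry, in 3 of 21 ISR genes, in 1 of the 9 leading negative genes with an entry and in 0 of 13 leading positive ones. In ASNS (chr7:97872359-97872658, minus strand) the match, in capitals, begins 68 bases before the start. No match of the other motifs searched lay in it.
ASNS: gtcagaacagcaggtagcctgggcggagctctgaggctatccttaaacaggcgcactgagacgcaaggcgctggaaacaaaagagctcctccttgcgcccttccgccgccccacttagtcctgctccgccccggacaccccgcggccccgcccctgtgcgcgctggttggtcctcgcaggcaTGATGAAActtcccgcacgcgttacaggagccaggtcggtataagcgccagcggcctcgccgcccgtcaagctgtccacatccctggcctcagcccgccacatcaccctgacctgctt

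Amino acid transporters and tRNA synthetases showed the same sign less strongly. Both differences were negative for 8 of 14 transporters (25.4% of all genes) and positive for 0 (29.6%), with medians of -0.08 and -0.13. In the less strict fit 1 was called lower (0.622% of all genes), the cystine importer SLC7A11 (-0.30 and -0.49). SLC3A2, the heavy chain that pairs with it, had -0.24 and -0.24. The glycine transporter SLC6A9 had -1.31 and 0.14, and so lies outside the genes with the same sign. Among synthetases 11 of 17 had both differences negative and 4 both positive, beside the same shares over all genes, with medians of -0.07 and -0.06. The alanyl enzyme AARS1 (-0.25 and -0.35) was called lower in the less strict fit. HARS1, the enzyme that L-histidinol blocks, had levels of 9.38 and 9.47 with and without L-histidinol in alpelisib, 9.68 and 9.79 in vehicle, 8.91 and 8.86 in the combination, and 9.12 and 9.29 in osimertinib. Its responses were all within 0.18 of zero, and its mean difference was 0.11 ± 0.10.

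Interferon-induced genes had the lowest median of all 28 lists in alpelisib minus vehicle. Both differences were negative in 19 of 22 measured genes (25.4% of all genes) and positive in 2 (29.6%), with medians of -0.39 and -0.30. The median response was 0.17 in alpelisib against 0.54 in vehicle, and 0.05 in the combination against 0.36 in osimertinib. In the less strict fit 14 genes were called lower (0.622% of all genes) and 2 higher (0.784%). Without L-histidinol the list stood higher with alpelisib, by a median of 0.42 against vehicle and 0.65 in the combination against osimertinib, and with L-histidinol the same medians were -0.09 and 0.22. Of 5 measured blood cell markers 1 had a mean log2 of at least 5 and 0 were called in either fit, also with 0 at an unadjusted p below 0.05 in limma's main test.

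IFI44L had 7.77 and 7.14 with and without L-histidinol in alpelisib, 8.18 and 6.63 in vehicle, 9.11 and 8.87 in the combination, and 8.76 and 7.59 in osimertinib. Its mean difference was -0.92 ± 0.11 (adjusted p = 0.0908 by limma). MX1, an antiviral GTPase, had 7.69 and 7.02 in alpelisib, 8.02 and 6.55 in vehicle, 9.24 and 9.16 in the combination, and 9.06 and 8.11 in osimertinib, in each pair with L-histidinol first. For both genes the combination array without L-histidinol was already above every other array without it, and the response there was 0.24 for IFI44L and 0.07 for MX1. The mean difference for MX1 was -0.84 ± 0.11. Its relative MX2 had -0.80 and -0.59, and OAS2, which makes the activator of RNase L, had -0.75 and -0.76.

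Factors that drive the interferon response were among the members. IRF9, the DNA-binding part of the complex that interferon activates, had -0.52 and -0.39, and IRF7 had -0.46 and -0.46. IFIT3 was the 1 gene of opposite signs, at 0.22 and -0.19. The guanylate-binding proteins GBP1 (0.64 and 0.13) and GBP2 (0.30 and 0.54), which respond mainly to interferon gamma, were the 2 genes with both differences positive. GBP1 had a response of 0.85 in alpelisib against 0.20 in vehicle, and 0.05 in the combination against -0.08 in osimertinib.

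The promoters of IFI44L and MX1 are shown for their interferon-stimulated response elements (ISRE), searched as GAAA, any 2 bases and GAAA on both strands of the same windows. This motif was in 12 of the 16 interferon genes with an entry and in 3.65% of all promoters. It was in 2 of 9 leading negative genes and in 0 of 13 leading positive ones. IFI44L (chr1:78620198-78620497, plus strand) holds 2 matches, which begin 164 and 73 bases before the start, and MX1 (chr21:41420308-41420607, plus strand) holds 1, which begins 11 bases after it. Capitals mark the matches, and neither window held a match of the other motifs searched.
IFI44L: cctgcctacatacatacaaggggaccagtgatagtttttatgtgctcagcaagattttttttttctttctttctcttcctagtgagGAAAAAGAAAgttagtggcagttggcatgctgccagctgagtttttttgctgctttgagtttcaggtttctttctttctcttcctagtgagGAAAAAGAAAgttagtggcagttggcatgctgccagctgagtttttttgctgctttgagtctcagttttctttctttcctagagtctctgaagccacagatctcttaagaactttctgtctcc
MX1: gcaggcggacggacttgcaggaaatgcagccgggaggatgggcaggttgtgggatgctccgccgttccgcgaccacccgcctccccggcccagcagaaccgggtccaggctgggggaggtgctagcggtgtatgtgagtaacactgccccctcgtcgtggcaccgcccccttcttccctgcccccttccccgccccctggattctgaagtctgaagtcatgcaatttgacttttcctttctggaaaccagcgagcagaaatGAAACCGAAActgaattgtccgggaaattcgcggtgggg

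The genes with the most positive differences were mostly on none of the lists (13 of 15). The first 15 by the same ranking were MGP, CYP24A1, IL6, CYP27C1, DLEU2, DIO2, RASD1, FGFBP1, S1PR3, SOD2, LIPG, JAG1, ENTPD3, GALNT15 and BNC2. Most of them were lower with L-histidinol than without in vehicle and in osimertinib, and less so or not at all with alpelisib. All 15 were called in the less strict fit, which tests the mean of the differences used for the ranking, so these calls are no separate support. DIO2, the thyroid hormone activating deiodinase, had a mean difference of 0.65 on the probe set used and 0.59 on the next brightest (0.38 and 0.80, mean log2 6.13), both marked for possible cross-hybridization, and -0.32 on its unmarked one, which was dim (mean log2 4.09) with differences of -0.96 and 0.32. The long non-coding RNA DLEU2 likewise had 0.79 on the probe set used and 0.02 on an unmarked one at a mean log2 of 3.10. S1PR3 had 0.55 and 0.66 on the probe set used, and -0.16 and 0.03 on its other one at a mean log2 of 4.83. SOD2 rests on a single probe set with its symbol alone.

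CYP24A1, the enzyme that inactivates vitamin D, had 8.54 and 8.997 with and without L-histidinol in alpelisib, 6.73 and 8.20 in vehicle, 9.55 and 9.75 in the combination, and 8.54 and 9.50 in osimertinib. The vehicle array with L-histidinol was the lowest of the 8, and the combination arrays were the highest. The mean difference was 0.88 ± 0.11 (adjusted p = 0.0908 by limma). MGP, an inhibitor of calcification in the extracellular matrix, had 6.33 and 7.33 in alpelisib, 5.21 and 7.18 in vehicle, 7.79 and 8.44 in the combination, and 6.98 and 8.43 in osimertinib, with L-histidinol first in each pair. Alpelisib and vehicle arrays without L-histidinol lay close together for MGP, as were combination and osimertinib arrays, so the groups parted mainly with L-histidinol. Its mean difference was 0.88 ± 0.13 (adjusted p = 0.163 by limma).

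JAG1, a Notch ligand, had responses of opposite sign with and without alpelisib. Its levels were 10.27 and 9.82 with and without L-histidinol in alpelisib, 10.02 and 10.11 in vehicle, 10.18 and 9.75 in the combination, and 10.11 and 10.20 in osimertinib. The response was 0.45 in alpelisib against -0.08 in vehicle and 0.43 in the combination against -0.09 in osimertinib, and 3 of its 5 other probe sets had both differences positive. RASD1, a Ras-like protein induced by glucocorticoids, had the same pattern with 0.39 against -0.19 and 0.44 against -0.26. LIPG, endothelial lipase, had -0.12 against -0.66 and -0.10 against -1.005.

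Inflammatory cytokines and chemokines had both differences positive in 13 of 21 measured cases (29.6% of all genes) and negative in 5 (25.4%). They had medians of 0.12 and 0.13, and only 12 of the 21 had a mean log2 of at least 5. Called higher in the less strict fit were 4 (0.784% of all genes), IL6, CXCL8, TNFAIP3 and IL11. IL6 had 7.62 and 6.80 with and without L-histidinol in alpelisib, 6.84 and 6.71 in vehicle, 9.07 and 7.66 in the combination, and 8.03 and 7.51 in osimertinib. The combination array with L-histidinol was more than 1 log2 unit above every other array, and the mean difference was 0.79 ± 0.13 (adjusted p = 0.205 by limma). The neutrophil chemokine CXCL8 had 5.58 and 4.38 in alpelisib, 4.89 and 4.63 in vehicle, 5.16 and 4.62 in the combination, and 4.06 and 4.49 in osimertinib, with L-histidinol first in each pair, and a mean difference of 0.96 ± 0.17 (adjusted p = 0.351 by limma). Its mean log2 was below 5, so it was not among the leading genes. TNFAIP3, a brake on NF-kappaB, had 0.33 and 0.73, and IL11 had 0.38 and 0.29. Thymic stromal lymphopoietin, TSLP, was the member with the most negative differences (-0.39 and -0.08), at a mean log2 of 2.96.

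The promoter of IL6 is shown for its NF-kappaB site, searched as GGGA, any base and TTTCC on both strands. The motif was in 7 of the 18 inflammatory genes with an entry, in 0.579% of all promoters, in 1 of 13 leading positive genes and in 0 of 9 leading negative ones. In IL6 (chr7:22726950-22727249, plus strand) the match, in capitals, begins 73 bases before the start. TGTTTAC, the core of FOXO sites, was searched as well and was in 0 of 13 leading positive genes, 1 of 9 leading negative genes and 3.41% of all promoters.
IL6: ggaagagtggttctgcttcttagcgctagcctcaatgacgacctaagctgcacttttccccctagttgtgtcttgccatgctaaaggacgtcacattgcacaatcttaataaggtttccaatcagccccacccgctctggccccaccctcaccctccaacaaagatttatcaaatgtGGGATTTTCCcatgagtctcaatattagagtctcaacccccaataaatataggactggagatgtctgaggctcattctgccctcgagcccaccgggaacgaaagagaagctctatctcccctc

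Matrix and mesenchymal genes had both differences positive in 10 of 18 measured cases (29.6% of all genes) and negative in 1 (25.4%). They had medians of 0.15 and 0.08, and 4 were called higher in the less strict fit (0.784% of all genes). Besides MGP these were the adhesive glycoprotein THBS1 (0.56 and 0.38), the collagen-binding protein SPARC (0.42 and 0.32) and the growth factor modulator CCN2 (0.34 and 0.53). THBS1 had 10.56 and 10.62 with and without L-histidinol in alpelisib, 9.71 and 10.34 in vehicle, 11.10 and 11.03 in the combination, and 10.43 and 10.74 in osimertinib. Both THBS1 levels with L-histidinol and alpelisib lay within 0.1 of those without L-histidinol. Of 6 fibroblast markers 3 had both differences positive, among them COL1A1 (0.27 and 0.08) and DCN (0.15 and 0.14), and 0 had both negative; their part in the matrix result was not tested.

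**Figure D3:**
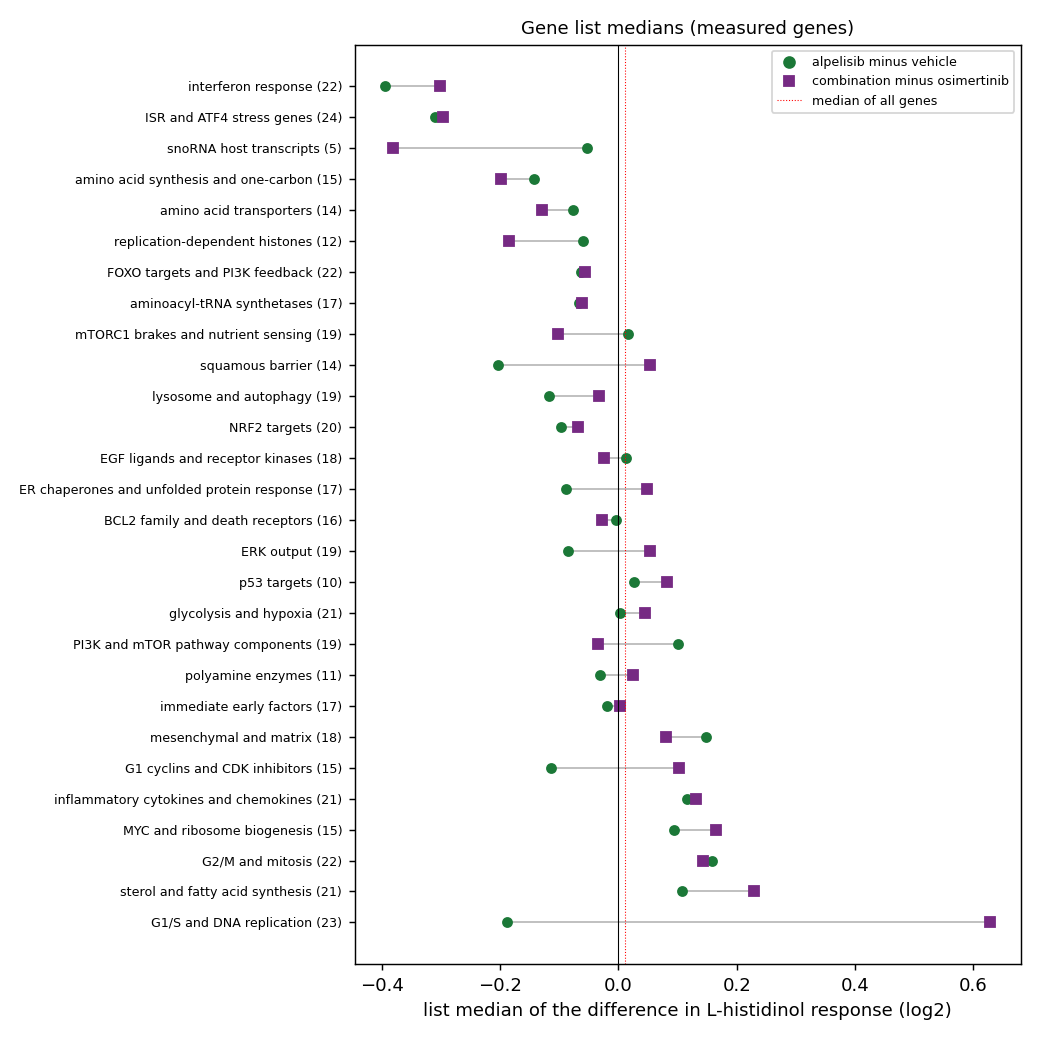
Median difference of the L-histidinol response for each of 28 gene lists, in alpelisib minus vehicle (circles) and in the combination minus osimertinib (squares), in log2, with the number of measured genes in parentheses. Interferon and ISR genes have negative medians in both sets (-0.39 and -0.30, -0.31 and -0.30), with the 5 snoRNA host transcripts below them in the second set (-0.05 and -0.38), sterol and G2/M genes have positive ones, and G1/S genes have a negative median in one set and a positive one in the other (-0.19 and 0.63).

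Sterol and fatty acid synthesis genes had both differences positive in 13 of 21 cases (29.6% of all genes) and negative in 1 (25.4%). They had medians of 0.11 and 0.23. Their median response was -0.28 in alpelisib against -0.42 in vehicle, and -0.38 in the combination against -0.58 in osimertinib. The less strict fit called 3 of them higher (0.784% of all genes). HMGCS1, the synthase before HMG-CoA reductase, had 6.73 and 7.39 with and without L-histidinol in alpelisib, 6.53 and 7.60 in vehicle, 6.34 and 7.16 in the combination, and 6.52 and 7.86 in osimertinib. Its levels without L-histidinol were lower with alpelisib in both settings, and those with L-histidinol were higher in alpelisib than in vehicle but lower in the combination than in osimertinib. The mean difference was 0.47 ± 0.13 (adjusted p = 0.889 by limma), and a second probe set gave 0.55 and 0.70. DHCR7, the last enzyme of cholesterol synthesis, had 0.40 and 0.54, and INSIG1, the sterol sensor that retains SREBP, 0.28 and 0.33.

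Genes of G2/M and mitosis had both differences positive in 19 of 22 cases (29.6% of all genes) and negative in 0 (25.4%). They had medians of 0.16 and 0.14 and 1 call in the less strict fit, the kinase AURKA (0.45 and 0.16). Their median response was -0.27 in alpelisib against -0.42 in vehicle, and 0.27 in the combination against 0.14 in osimertinib, so that levels with L-histidinol were the lower ones in the first set and the higher ones in the second. In a bulk extract a different share of mitotic cells and a different amount of RNA per cell cannot be told apart. Ribosome biogenesis genes had both positive in 12 of 15 cases and negative in 0, beside the same shares over all genes. They had medians of 0.09 and 0.17 and 0 calls in either fit. At an unadjusted p below 0.05 in limma's main test 2 were higher (2.59% of all genes). MYC had -0.04 and 0.11.

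DNA replication genes did not share a sign. Of 23 measured G1/S genes 19 had opposite signs, beside 8893 of 19775 genes in all. They had a median of -0.19 in alpelisib minus vehicle and 0.63 in the combination minus osimertinib. Their median response was -0.59 in alpelisib against -0.39 in vehicle, and -0.03 in the combination against -0.63 in osimertinib. MCM5, a helicase subunit, had 9.26 and 10.09 with and without L-histidinol in alpelisib, 9.60 and 10.13 in vehicle, 7.63 and 7.84 in the combination, and 8.03 and 9.16 in osimertinib. The combination array without L-histidinol was already more than 1 log2 unit below the osimertinib array. RRM2, a ribonucleotide reductase subunit, and the thymidylate synthase TYMS had the same sign only through differences of 0.03 in the first set, beside 0.91 and 0.88 in the second. Called higher in the less strict fit were 5 G1/S genes (0.784% of all genes), RRM2 and TYMS among them, and 0 were called lower (0.622%). GINS2 (-0.12 and 1.08) and CDT1 (-0.18 and 1.02) were also among the 5, although their differences had opposite signs.

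**Figure D4:**
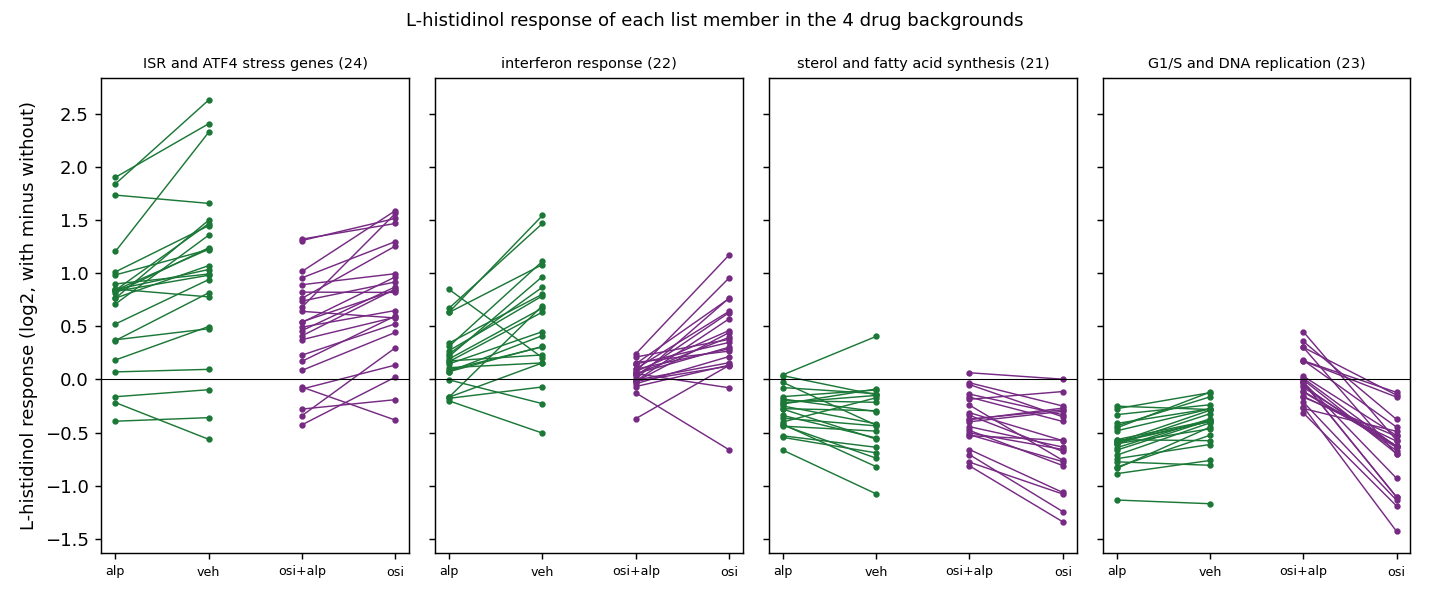
L-histidinol response (log2 with minus without) of each measured member of 4 gene lists in alpelisib (alp) joined to vehicle (veh), and in the combination (osi+alp) joined to osimertinib (osi). Lines of ISR and interferon genes mostly run upward to the right in both pairs of columns (medians 0.82 against 1.05 and 0.51 against 0.83 for the ISR), while G1/S genes lie near zero in the combination alone (median -0.03).

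Of the lists closest to the drug target, FOXO targets and PI3K feedback genes were split. Both differences were negative in 10 of 22 cases (25.4% of all genes) and positive in 6 (29.6%), with medians of -0.06 and -0.06. The levels of these genes were nevertheless higher with alpelisib by a median of 0.44 to 0.54 in all 4 comparisons with and without L-histidinol. The less strict fit called 2 lower (0.622% of all genes), the insulin receptor adaptor IRS2 (-0.16 and -0.63) and the arrestin TXNIP (-0.42 and -0.36). The list median reached 0.01 with the mean of probe sets. PI3K and mTOR pathway components had opposite signs in 12 of 19 cases, beside 8893 of 19775 over all genes. SGK1, a kinase activated downstream of PI3K and mTORC2, was the 1 call of the less strict fit in this list (0.41 and 0.52). Readouts of ERK signalling had opposite signs in 10 of 19 cases, not far from that share over all genes. Their medians were -0.09 and 0.05, with 0 calls in either fit and 0 genes at an unadjusted p below 0.05 in limma's main test. Within this list the phosphatase DUSP6 had -0.49 and 0.30 and the cyclin CCND1 -0.15 and 0.05.

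Of all 28 lists, 11 had negative medians in both sets and 7 had positive ones. For the counts that follow, the shares over all genes were 25.4% with both differences negative and 29.6% with both positive. The share called lower in the less strict fit was 0.622%. Among the other lists, snoRNA host transcripts had both differences negative in 4 of 5 cases (SNHG32 -0.29 and -0.53, ZFAS1 -0.19 and -0.36), with 3 called lower in the less strict fit. Replication-dependent histones were negative in 7 of 12 and positive in 0, led by H4C8 (-0.29 and -0.90). Lysosome and autophagy genes were negative in 9 of 19 and positive in 4, with the autophagosome protein MAP1LC3B (-0.42 and -0.19) and the protease CTSD (-0.40 and -0.19) called lower in the less strict fit.

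Genes with a large L-histidinol response in one set of arrays mostly differed in the opposite direction in the other set, least so those lower in osimertinib. Of 83 genes at least 1 log2 unit higher with L-histidinol in vehicle, 76 had a negative difference in the combination minus osimertinib, with a median of -0.32. Of 45 genes at least 1 unit lower in vehicle, 42 had a positive difference there, with a median of 0.28. In the other direction, 42 of 44 genes at least 1 unit higher in osimertinib had a negative difference in alpelisib minus vehicle (median -0.29). Of 32 genes at least 1 unit lower, 22 had a positive one (median 0.11). Over all 11627 genes the median was 0.018 in the combination minus osimertinib and 0.032 in alpelisib minus vehicle, so this last group stood apart least. The share of all genes with each sign in a single difference was not counted. These counts therefore have no such share beside them, and the 22 of 32 may lie near it. The arrays behind each response and its difference do not overlap. Across the 11627 genes the response in vehicle correlated with the combination minus osimertinib difference at r = -0.47, and the response in osimertinib with the alpelisib minus vehicle difference at r = -0.21, both descriptions across genes.

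Osimertinib minus vehicle gave a further difference of L-histidinol responses, which shares arrays with those of alpelisib, so both are given as values only. Combination minus alpelisib gave another of this kind. For ISR genes the median was -0.31 in alpelisib minus vehicle, -0.19 in osimertinib minus vehicle and -0.23 in the combination minus alpelisib. For interferon genes these medians were -0.39, -0.22 and -0.14. Other lists had larger differences with osimertinib than with alpelisib. In the same order the medians were 0.16, 0.53 and 0.56 for G2/M genes, and 0.09, 0.22 and 0.25 for ribosome biogenesis genes. For replication-dependent histones they were -0.06, -0.20 and -0.35. Among leading negative genes, NUPR1 had -0.79, -1.04 and -0.82. NIBAN1 had -0.94 in alpelisib minus vehicle, -0.89 in osimertinib minus vehicle and -0.91 in the combination minus alpelisib. The response in alpelisib minus that in osimertinib was tested for each gene by limma with all 8 arrays, and 0 of 19775 genes passed in the main test (0%, smallest adjusted p = 1.0), while 713 had an unadjusted p below 0.05 (3.61%). The less strict fit called 49 genes higher (0.248%) and 46 lower (0.233%). Of the 15 leading positive genes 3 were among them, CYP24A1 (0.50), LIPG (0.89) and JAG1 (0.54). Of the 15 leading negative genes 2 were, IFI44L (-0.54) and KLHDC7B (-1.06). For NIBAN1 the response in alpelisib was -0.05 from that in osimertinib.

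Other probe sets of the same genes, which the ranking did not use, mostly had the same sign. The 208 genes at or above 0.25 had 106 other probe sets with a mean log2 of at least 5, and 70 of these (66.0%) were positive in both differences, against 34.2% of 8612 such probe sets in all. The 191 genes at or below -0.25 had 105, and 78 (74.3%) were negative in both, against 23.0%. Probe sets of a gene share the RNA and the arrays, so they check the probes and not the conditions.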

How the data were processed

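The authors deposited 1 linear intensity for each probe set of the Affymetrix U133 Plus 2.0 array. RMA and affy are the tools in the submitters' processing notes, without versions. Biotinylated cRNA was made from total RNA, per the labels' protocols. The log2 of each intensity was taken with no further scaling. Of 54675 probe sets, 62 were controls, 41091 carried 1 gene symbol, 1801 several and 11721 none. Only those with 1 symbol were used, and the probe set with the highest mean stood for each of 19775 genes, of which 9252 had a single one.

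All 8 arrays were fitted with limma 3.58.1 (R 4.3.3, statmod 1.5.0) with L-histidinol, osimertinib, alpelisib and their 2-way terms. The L-histidinol by alpelisib term is the mean of the 2 differences, and their disagreement is the 1 residual degree of freedom. The prior spread, which follows intensity, came from the additive fit (8.08 prior degrees of freedom); the prior of the 2-way fit itself is the less strict alternative. All genes entered the Benjamini-Hochberg adjustment. On simulated data with 200 changed genes of 19775, the main fit recovered 0%, 53.5% and 99% of differences of 0.5, 1 and 2 log2 units with 0, 5 and 3 false calls, and the less strict fit 2.5%, 79% and 100% with 2, 20 and 15. The simulated spread came from the prior of the additive fit, and no change of the response by osimertinib was put in. The simulation thus meets the assumptions of the main fit by design, and its rates need not carry over to these data. Precision is limited by the 8 arrays.

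Named genes are the first 15 each way with a mean log2 of at least 5, by the smaller absolute difference. Added to these are 4 per list by the absolute mean difference, and 14 set genes. Other list members named (PPP1R15A, ATF5, PSAT1, PHGDH, IRF7, IRF9, IFIT3, GBP1, GBP2, IL11, TSLP among them) were chosen after their values were seen. INHBE, which is on none of the lists, was named because it shared the smallest adjusted p. Members, the 28 lists (486 of 538 entries measured) and tests were chosen with earlier results of these data known. Alternatives changed the prior, the probe set per gene, the scaling, the pseudocount and dim genes, or left out an array. Promoters are from RefSeq GRCh38.p14. Python 3.11.15, numpy 2.4.6, pandas 2.3.3 and matplotlib 3.10.9 were used.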

Additional observations from a re-analysis of the deposited data

Results flagged for a closer look

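In 6 of 140 named genes with a mean log2 of at least 5 (4.29%) the L-histidinol response had one sign on both array pairs with alpelisib and the opposite sign on both without it, a difference in sign that was not tested. The mean difference was 0.64 for RASD1, 0.53 for JAG1, 0.44 for CCN2, 0.23 for the kinase MTOR and 0.21 for the arginyl-tRNA synthetase RARS1, each with positive responses under alpelisib and negative ones in its absence. It was -0.29 for CTSD, which went the other way. Of 11627 genes with a mean log2 of at least 5, 465 had such opposite responses (4.0%), a share close to that of the named genes. Some responses were near zero, such as 0.03 and 0.10 with alpelisib against -0.16 and -0.12 without it for RARS1.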

How the results depend on the processing

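The variance prior decided the count of calls. With the prior of the 2-way fit 278 genes were called (155 higher, 123 lower), against 0 in the main fit, and 95 (49 higher, 46 lower) for alpelisib against osimertinib, against 0. Under the other 8 alternatives the count was 0 for both, with smallest adjusted p-values of 0.0543 to 0.952 for alpelisib. The share of genes with the same sign, 55.03%, was 54.31% with the mean of probe sets, 53.78% without marked probe sets and 58.46% without dim genes. The split of positive to negative members was 4134 to 2663 (60.8% positive) as deposited, 3873 to 2883 with arrays centred on their median and 3443 to 3227 (51.6%) after quantile normalization. Lists with 1 sign in both medians numbered 18 to 21. Of the alternative values of the leading genes, 118 of the positive and 118 of the negative ones kept their sign and side of the threshold, and 15 of each passed it under the prior of the 2-way fit. With the mean of probe sets the mean difference changed sign for GINS2 (-0.0039), RRP12 (-0.074), ARG2 (0.10), PECAM1 (0.011), VWF (-0.083) and DUSP6 (0.017). Without marked probe sets it did so for DIO2 (-0.32), SLC1A4 (0.0605), KLF2 (-0.046), GINS2 (-0.0175), RRP12 (-0.15), ARG2 (0.32), KRT7 (0.037), LUM (-0.056) and PTPRC (-0.030). The cause was not tested. Leaving out any 1 array leaves one difference alone, a value with no test, given above for each gene. No paired analysis was possible because each condition has 1 array and the labels carry no replicate numbers.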
